A study of Mus musculus with 11 samples.

Results

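The denervation response of Runx1-deleted muscle was read from 5 of the 11 Affymetrix arrays of the series, hybridised with RNA of the tibialis anterior, a mainly fast muscle at the front of the mouse shin. The arrays were chosen by their sample titles: 3 arrays of muscle denervated for 3 days and 2 arrays of innervated muscle, all from mice of the genotype runx1f/-; MCK::cre, called mutant from here on. The 3 innervated and 3 denervated control arrays came from runx1f/- mice without Cre, so the floxed allele over a null allele of Runx1 was common to all 4 groups, the controls included. MCK::cre places Cre recombinase under the promoter of muscle creatine kinase, which is active in muscle fibres, so that Runx1 of other cells in the tissue is not its target. An effect of Cre itself cannot be told apart from an effect of the Runx1 deletion in these groups. The labels give no age, sex or strain, and do not say whether innervated muscle was the opposite leg of the denervated animals. They also do not say that replicate arrays came from separate animals, so p-values measure the spread between these samples, which may be technical. The treatment note of denervated control array 3 gives 5 days where its title gives 3.

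A muscle fibre that loses its motor nerve spreads acetylcholine receptors over its surface, re-expresses genes of immature muscle, lowers many genes of contraction and fuel use, and breaks down protein through the ubiquitin-proteasome and autophagy systems. Runx1 is a DNA-binding transcription factor of the Runt family that works with the partner CBF-beta. It is scarce in innervated muscle, is induced when the nerve is lost, and is known for limiting the wasting of denervated fibres.

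Signals are probe set intensities on a linear scale. Median signals of the 5 mutant arrays lay between 443 and 605 units, and the median over all probe sets on these arrays, 506 units, is used below as a floor under which a level counts as near background. The arrays carry no molecule counts, so their number limits the precision. Of the 12 skeletal fibre markers tested, 12 had mean signals on the mutant arrays above the 99th percentile of all probe sets. The first principal component of the 5 mutant arrays held 67.9% of their variance and set the 3 denervated arrays apart from the 2 innervated ones. The second, with 13.7%, lay between the innervated arrays, which correlated at 0.957 across probe sets against 0.971 to 0.976 among the denervated arrays. The median SD within a group was 0.20 log2 units over the 2 innervated and 0.19 over the 3 denervated mutant arrays. A median of SDs from 2 arrays tends to read lower than that from 3, so these values do not compare the spread of the groups.

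Runx1, the targeted gene, has 6 probe sets on the array. The brightest read 288 and 395 units on the innervated mutant arrays and 20403, 20449 and 23185 on the denervated ones. On the control arrays it read 505, 519 and 179 before and 23499, 25898 and 24353 after denervation. This signal rose in both genotypes, with a log2 change of 5.91 ± 0.34 (SE) in mutant muscle (limma adjusted p = 1.2e-07) and 6.02 in control muscle (adjusted p = 2.84e-08), and the change differed between genotypes by -0.11 ± 0.46 (adjusted p = 0.98). Its innervated means lay under the floor, so these sizes depend on background and no fold is given. The position of these probe sets relative to the deleted part is unknown here, so these values check neither the deletion nor the labels. A different probe set of Runx1 read 1304 and 1724 units on innervated and 1484, 1493 and 1145 on denervated mutant arrays. On control arrays that same probe set rose from 1032, 1116 and 818 units to 2980, 3049 and 1574, a log2 change of 1.29 ± 0.25 (limma adjusted p = 0.00177), while the difference between genotypes, -1.43 ± 0.38, did not pass (adjusted p = 0.22).

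The first question was which genes changed when mutant muscle lost its nerve. Receptor subunits, myogenic factors, proteasome subunits and macrophage markers were mainly higher, and genes of fuel use, membrane excitability and the fast contractile apparatus mainly lower. Some of these falls depended on the scaling. In the deposited signals 15 of 17 fast-fibre and 38 of 55 respiratory chain genes fell, and under other scalings 4 to 6 and 3 to 31. Of 26170 probe sets tested, 26.3% passed an adjusted p of 0.05 in limma, 3416 upward and 3478 downward. Represented by its brightest probe set, 30.5% of the 12214 genes passed, 16.7% upward (2034 genes) and 13.8% downward (1688 genes). These shares over all genes are the background to set beside each gene list count of this fit given below. The 5 mutant arrays did not overlap between the groups for 60.7% of all genes, so non-overlap alone marks little here. Among the genes that passed, 950 rose and 776 fell at least 2-fold, 206 rose and 188 fell at least 4-fold, and 28 rose and 19 fell at least 16-fold on the scale of log2(signal + 16), which understates changes of dim genes. The lower mean was under the floor for 16 of those 28 and 14 of those 19.

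Directions are relative to the authors' scaling, which gave each array the same trimmed mean. Hybridisation spike-ins read 0.44 log2 units lower on denervated than on innervated mutant arrays (exact two-sided permutation p = 0.2) and polyadenylated spike-ins 0.50 lower (exact p = 0.1, the smallest that 3 against 2 arrays allow). Centring on them shifts the median change of all genes from -0.01 to 0.43 and 0.49, and the split of called probe sets to 6234 up and 1043 down, or 8309 up and 1063 down. Quantile normalization gave 3743 up and 3095 down and median scaling 5732 up and 1643 down. Of the 12214 genes, 2137 rose and 1573 fell with quantile normalization, and 3326 rose and 782 fell with median scaling. Hybridisation spike-ins gave 3555 up and 496 down, polyadenylated ones 4766 and 527. These are the background for list counts under other scalings. Median scaling and spike-in centring shift each list median with that of all genes, so a changed sign there is no change relative to all genes. Without innervated mutant 1 the count of called probe sets was 4595, and without innervated mutant 2 it was 4337, against 6894 with all arrays.

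The largest rises included Myog and Chrna1 of muscle and the macrophage genes Cd68 and Lgals3. Myog, a myogenic transcription factor, read 835 and 1647 units on innervated and 64499, 68359 and 73773 on denervated arrays. Blnk, an adaptor protein of B cell receptor signalling, read 970 and 909 and then 47452, 44530.4 and 46447. Chrna1, the alpha subunit of the muscle acetylcholine receptor, read 2999 and 3341 and then 61828, 65161 and 55836. In each of these the 3 denervated arrays lay together and far above the pair of innervated arrays. The rises were 57.8-fold for Myog (log2 change 5.85 ± 0.27 SE, limma adjusted p = 2.61e-08), 48.3-fold for Blnk (adjusted p = 1.48e-10) and 19.1-fold for Chrna1 (adjusted p = 1.04e-08). Ankrd1, a titin-associated protein induced by stretch, went from 4802 and 3201 units to 95522, 105220 and 106905. Ampd3, an AMP deaminase, went from 3331 and 2413 to 61873, 54279.7 and 67178, and Lpin2, a phosphatidate phosphatase, from 1323 and 963 to 30392, 25632 and 24619. These 3 rose by 4.70, 4.42 and 4.55 log2 units, with other kept probe sets of Ankrd1 and Lpin2 also past the threshold in the same direction. Cd68, a lysosomal protein of macrophages, went from 781 and 629.8 units to 17053, 19826 and 27214, and Lgals3, galectin-3, from 2089 and 1166 to 42393, 36411 and 48374. Also among the 12 largest rises above the floor were Cpne2, a calcium-dependent membrane-binding copine (5.10 log2 units), Eda2r, a receptor of ectodysplasin (4.13), Ahnak2 (4.12) and Gpnmb (4.35). A second probe set of Gpnmb gave 1.40 and did not pass.

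The largest falls were in Mlf1, 2310002L09Rik, Ky and Dhrs7c. Mlf1 read 67851 and 80121 units on innervated and 2813, 2207 and 2894 on denervated arrays. Ky, a Z-disc protein needed for muscle growth, read 26454 and 30680 and then 1282, 1206 and 1093. Dhrs7c, an enzyme of the sarcoplasmic reticulum, read 55079 and 63421 and then 2470.2, 2675 and 2929. For these the lowest innervated array lay many times above the highest denervated array. The log2 change was -4.81 ± 0.20 (SE) for Mlf1 (limma adjusted p = 1.04e-08), and the fall was 23.6-fold for Ky (adjusted p = 1.47e-08) and 21.9-fold for Dhrs7c (adjusted p = 1.75e-06). Tfrc, the transferrin receptor that takes up iron, fell from 74772 and 104219 units to 6213, 5664 and 6025. Smox, which oxidises spermine, fell from 60608 and 63925 to 4551, 5743 and 4672, and the potassium channel Kcna7 from 29377 and 31048 to 2378, 2709.7 and 2396. Asb15 and Asb12, substrate receptors of ubiquitin ligases, fell by 4.17 and 3.62 log2 units. 2310002L09Rik (-4.65), Plpp7 (-3.54), a protein of the nuclear envelope, and A530047J11Rik (-3.52) complete the 12 largest falls above the floor, with Myh2, described among the myosins.

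**Figure D1:**
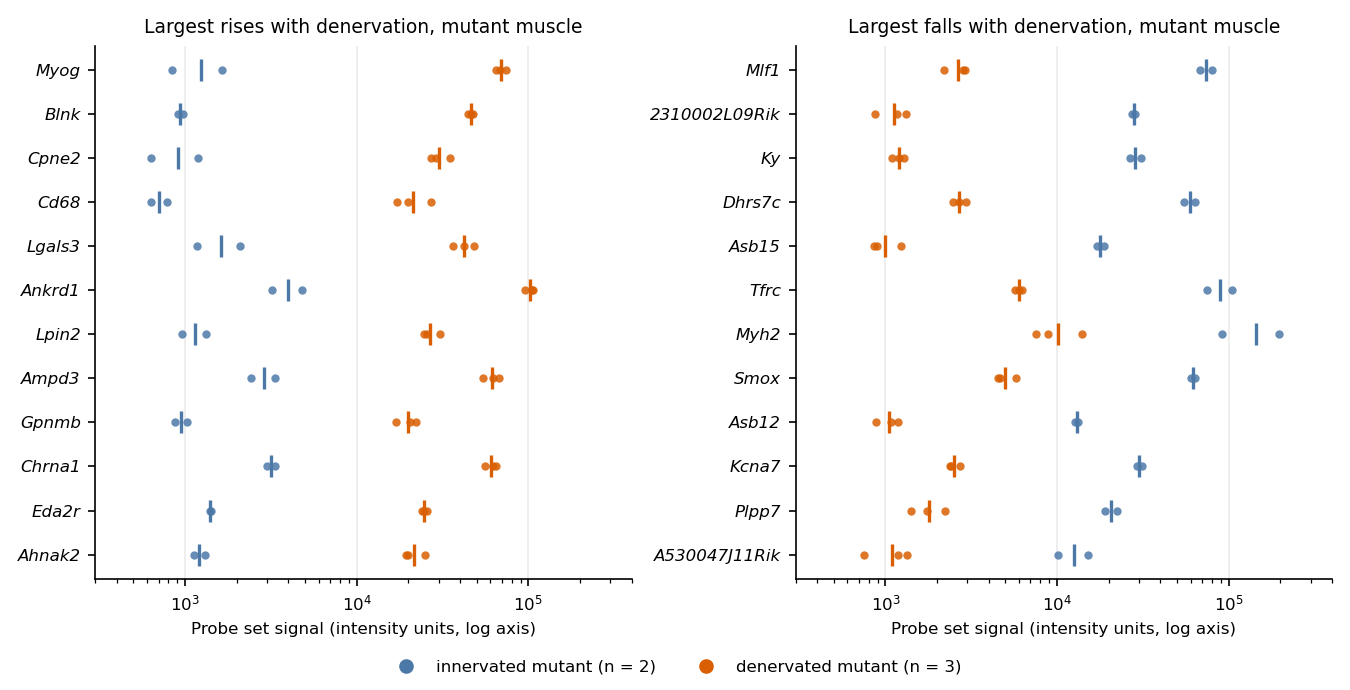
Probe set signal in intensity units (log axis) of the 12 largest rises and 12 largest falls whose lower mean lay above the floor; points are arrays, bars are group means of 2 innervated and 3 denervated mutant arrays. Only genes whose arrays do not overlap between the groups were chosen for drawing, as holds for 60.7% of all genes. Myog lies at 835 to 1647 units on innervated and 64499 to 73773 on denervated arrays, and Mlf1 at 67851 to 80121 and then 2207 to 2894.

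Several genes crossed the floor, so that their fitted change depends on the added 16 units and no fold is given. Nrcam, a neural adhesion molecule, read 213 and 25.2 units on innervated and 19350, 17677 and 23207 on denervated arrays. A second kept probe set of Nrcam also passed, with a log2 change of 3.23 against 7.68 for this one. Gdf5, a BMP family ligand, read 344 and 82.6 and then 18413, 18312 and 15107. Plet1 read 54.2 and 37.9 and then 11372, 7286 and 16670.3, and Orm2, an acute-phase protein, 228 and 81.5 and then 33250, 19056 and 31663. All 4 were near background in innervated muscle and well above the floor on each denervated array, as were Chrna9 and E130218I03Rik. Perm1, a regulator of mitochondrial genes that acts with PGC-1 and ERR factors, went the other way, from 29572 and 21964 units to 141, 216 and 139. A second kept probe set of Perm1 also passed, but with a log2 change of -1.34 against -7.16 for this one. Smco1 went from 12606 and 13974 to 148, 129 and 194, and the potassium channel subunit Kcng4 from 10858 and 10110.4 to 52.4, 346 and 380.3. Kcnc1, a further potassium channel, Atp1b4, of the sodium pump beta family, and Fn3k, a kinase of glycated proteins, also ended with means below the floor. Limma adjusted p over these 12 genes lay between 8.71e-09 (Perm1) and 0.00031 (Atp1b4).

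The muscle acetylcholine receptor is a pentamer of alpha, beta and delta subunits with gamma in fetal and epsilon in adult muscle. Of 7 receptor genes listed 6 were tested: 5 rose and 1 fell, with a median log2 change of 3.62 against -0.01 over all genes. Beside the changes of Chrna1, given above, Chrnb1, the beta subunit, went from 5691 and 5161 units to 27828, 26292 and 24473, 4.82-fold (limma adjusted p = 7.66e-07). Chrnd, the delta subunit, went from 69.9 and 188 to 1926, 2829.6 and 2981 (adjusted p = 5.75e-06), starting below the floor. Chrng, the fetal gamma subunit, went from 89.4 and 35.7 to 687, 546 and 489.9 (adjusted p = 3.56e-05). The gamma signal thus rose on all 3 denervated arrays but only to about the floor, and a second probe set of Chrng gave 0.67 and did not pass. Chrne, the adult epsilon subunit, fell from 1083 and 1468 to 322, 522 and 619, by 1.39 ± 0.33 log2 units (adjusted p = 0.00696), a call lost with centring on the polyadenylated spike-ins and without innervated mutant 2. Chrna9, an alpha subunit best known from the inner ear, went from 231 and 59.1 units to 17040.1, 12089 and 16274 (adjusted p = 5.15e-06).

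**Figure D2:**
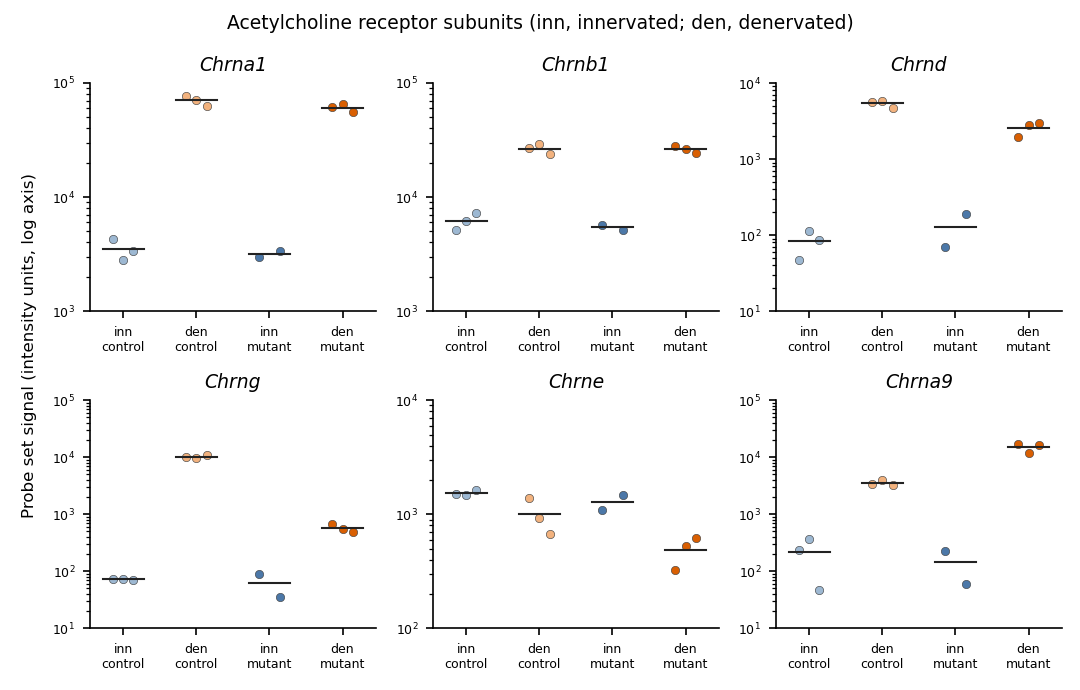
Probe set signal in intensity units (log axis) of the 6 acetylcholine receptor subunits tested, in innervated (inn) and denervated (den) control and mutant muscle; points are arrays and bars group means. In mutant muscle 5 subunits are higher and Chrne lower after denervation, and the denervated arrays of Chrng lie at 489.9 to 687 units in mutant against 9627 to 10959 in control muscle.

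Receptor subunit promoters hold E-boxes, the CANNTG sites that myogenic factors such as myogenin bind. The 250 bases before the transcript start are shown for Chrna1, Chrng and Chrne, which differ in their response, with E-boxes in capitals (RefSeq, GRCm38.p6, each 5′ to 3′ on the gene's strand). Chrna1 lies at chr2:73580339-73580588 on the minus strand, Chrng at chr1:87205561-87205810 on the plus strand and Chrne at chr11:70619195-70619444 on the minus strand.
Chrna1: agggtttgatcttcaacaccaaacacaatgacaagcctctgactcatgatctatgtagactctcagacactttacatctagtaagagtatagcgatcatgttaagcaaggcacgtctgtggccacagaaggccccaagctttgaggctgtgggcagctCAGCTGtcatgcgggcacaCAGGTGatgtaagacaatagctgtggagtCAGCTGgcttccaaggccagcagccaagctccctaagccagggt
Chrng: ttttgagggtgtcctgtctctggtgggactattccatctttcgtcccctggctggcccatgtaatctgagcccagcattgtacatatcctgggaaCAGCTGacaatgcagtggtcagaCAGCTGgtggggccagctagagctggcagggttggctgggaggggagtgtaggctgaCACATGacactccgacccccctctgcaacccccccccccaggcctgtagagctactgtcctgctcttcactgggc
Chrne: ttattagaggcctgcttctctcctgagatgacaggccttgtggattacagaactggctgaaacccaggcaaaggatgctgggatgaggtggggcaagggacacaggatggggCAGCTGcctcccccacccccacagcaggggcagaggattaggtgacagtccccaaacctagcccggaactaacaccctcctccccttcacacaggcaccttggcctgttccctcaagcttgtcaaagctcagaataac
The motif CANNTG, searched on both strands, stands 3 times before Chrna1, 3 times before Chrng and 1 time before Chrne. It was present before 5 of the 5 tested subunits with a promoter in the table, against 66.2% of the 32851 promoters of the same length. CAGCTG, a form of CANNTG, was present before 4 of the 5 against 13%, and TGTGGT, a core of Runx sites also searched on both strands, before 0 of the 5 against 14%. Such matches are letters in a window and are not evidence of binding.

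Among 20 tested organisers and enzymes of the synapse 7 rose and 4 fell, with a median of 0.32; without innervated mutant 1 only 4 passed upward, and under the other scalings 7 to 11 rose and 2 to 4 fell. Musk, the kinase that clusters receptors, rose from 1080.3 and 1635 units to 7178, 9486 and 8348, 6.17-fold (limma adjusted p = 2.55e-05). Rapsn, the scaffold that binds the receptor, rose by 1.29 log2 units and Lrp4, the agrin receptor, by 1.39. Ncam1, a neural adhesion molecule of denervated fibres, rose by 1.84. Ache, the esterase that ends the signal, fell from 2523 and 3129 units to 728, 851 and 849 (adjusted p = 4.13e-05), and Agrn, the nerve's organiser, read 0.02 ± 0.19 and did not pass. Musk, Rapsn, Lrp4 and Ncam1 were higher, and Ache lower, on each denervated array than on either innervated array. Such non-overlap held for 16 of the 20 genes of this list and for 60.7% of all genes.

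Transcription and signalling genes known from denervation moved in both directions, 12 of 23 up and 3 down. Hdac4, a class II histone deacetylase that links nerve activity to gene expression, rose from 2759 and 2963 units to 37594, 29732 and 33149.5 (limma adjusted p = 2.76e-08). Dach2, a repressor of Myog, fell from 1153 and 1312 to 26.8, 192 and 255 (adjusted p = 0.00221), below the floor. Gadd45a, a stress-induced gene of muscle atrophy, rose from 6778 and 7319 to 73575, 74970.3 and 87856, and Cdkn1a, the cell cycle inhibitor p21, from 2143 and 2583 to 39436, 30030.3 and 40954. None of these 4 genes overlapped between innervated and denervated arrays, as was so for 60.7% of all genes. The class II relatives did not move alike: Hdac5 fell by 0.67 log2 units and Hdac9 by 1.87, while Hdac7 read -0.18 ± 0.18 and did not pass. The myogenic factors Myod1 (1.98), Myf6 (1.42) and Myf5 (1.27) rose beside Myog, Myf5 only with innervated mutant 2 in the fit.

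Of 9 tested RUNX factors and partners, Runx1 and the co-repressor Runx1t1 (1.08) rose and the co-repressor Cbfa2t3 fell by 0.85, a fall that did not pass without innervated mutant 1 or with median or spike-in scaling. Cbfb, the partner of Runx1, read 0.19 ± 0.17 log2 units and did not pass. In the AP-1 and early response list 8 of 21 genes rose and 2 fell, with 9 to 13 up and 1 to 2 down under the other scalings; 1 fell without innervated mutant 1 or 2, denervated mutant 2 or 3, innervated control 1 or 3 or denervated control 2. Over all genes 16.7% rose and 13.8% fell. Atf3 rose from 767 and 443 units to 2844, 4236 and 7496, Junb by 2.43 log2 units and Myc by 2.33, while Fos read 1.05 ± 0.45 and did not pass. Nr4a1, an orphan receptor induced by contraction, fell from 47815 and 44582 units to 3006, 5549 and 4463, 10.9-fold (limma adjusted p = 5.32e-06).

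Most proteasome subunits and the main muscle ubiquitin ligases rose. Of 37 proteasome subunits tested 31 rose and 0 fell, with a median of 0.82; 1 fell without denervated mutant 3 or innervated control 2. The lowest was Psme1, an activator subunit, at -0.46 ± 0.22, not past the threshold, and the highest Psma5, a core subunit, which rose 2.84-fold. Psmd4, a ubiquitin receptor of the regulatory particle, rose from 25478 and 27482 units to 73053, 71497 and 80899, 2.83-fold (limma adjusted p = 2.56e-05). Fbxo32, the muscle ubiquitin ligase atrogin-1, rose from 23079 and 16304 to 103698, 106133 and 125569, 5.74-fold (adjusted p = 1.01e-06). Trim63, the ligase MuRF1, rose from 43818 and 32812 to 85688, 87142 and 85697, 2.27-fold (adjusted p = 6.36e-05). The denervated arrays of both ligases lay above each innervated array, a non-overlap found for 60.7% of all genes in either direction. Over the list of ubiquitin ligases and FoxO targets 8 of 21 rose and 1 fell: Fbxo30 rose by 1.42, the metal-binding proteins Mt1 and Mt2 by 2.65 and 2.92, and the translation inhibitor Eif4ebp1 by 2.47, while the ligase Nedd4l fell by 1.75. Under the other scalings 8 to 15 of the list rose, beside 2137 to 4766 of all 12214 genes. Foxo1 (0.62 ± 0.32) and Foxo3 (0.73 ± 0.26), the factors themselves, did not pass.

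In the autophagy and lysosome list 11 of 39 genes rose and 2 fell, with a median of 0.35; 13 to 29 rose and 0 to 2 fell under the other scalings, 17 rose without innervated control 2 and 1 fell without innervated mutant 1. The cysteine protease Ctsl rose from 36598 and 33978 units to 120442, 103720 and 116808, 3.22-fold (limma adjusted p = 2.23e-06). Gabarapl1, an ATG8 protein of the autophagosome, rose by 1.58 log2 units, the cargo receptor Sqstm1 by 0.84 and Map1lc3b by 0.71. Ulk2, a kinase that starts autophagy, fell by 0.96. Of 27 genes of the unfolded protein and integrated stress response 12 rose and 1, Ddit3, fell; 0 fell when any mutant array was left out or with median or spike-in scaling, where 17 to 22 rose. Ppp1r15a, which reverses the translation block, rose from 3451 and 2956 units to 11561, 11677 and 15271 (adjusted p = 3.1e-05), and Xbp1 and Atf6, transcription factors of this response, rose by 1.37 and 1.01. Among 23 heat shock proteins and chaperones 7 rose, among them Hspb8 (1.55), Hspb1 (1.58) and Hsph1 (1.43), and 4 fell, among them Smyd1 (-2.09), a methyltransferase of myosin assembly. Over all genes 16.7% rose and 13.8% fell. Under the other scalings 10 to 14 of these chaperone genes rose and 2 to 4 fell. Cytosolic ribosomal protein genes passed upward in 7 of 30 cases and downward in none, and 2 to 17 passed upward when an array was left out. Under the other scalings 17 to 23 of them rose. Of all 12214 genes, 2137 to 4766 rose under those scalings and 496 to 1573 fell.

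Most genes of energy metabolism tested were lower in denervated mutant muscle. No respiratory chain gene rose (1 did with median and spike-in scaling and without innervated mutant 2 or innervated control 2) and 38 of 55 fell, with a median of -0.64; medians under the 4 other scalings stayed negative at -0.48 to -0.14, but only 3 to 31 genes passed there, and 17 without innervated mutant 2. Sdhd, a subunit of complex II, fell from 57564 and 69735 units to 24574, 26063 and 28728, 2.40-fold (limma adjusted p = 3.72e-05). Ndufs1, of complex I, fell from 78624 and 84822 to 35889, 40274 and 43276 (adjusted p = 0.000139). These falls were modest beside those of Mlf1 or Ky. The arrays of the groups did not overlap, as was so for 60.7% of all genes. Of 20 citrate cycle enzymes 16 fell and 1, Pcx, rose (median -0.68, and -0.61 to -0.18 with 4 to 15 falls under the other scalings). Idh3a fell from 128294 and 142919 units to 29074, 41439 and 39149.7, 3.75-fold (adjusted p = 1.94e-05), and Dlat, of pyruvate dehydrogenase, by 1.81 log2 units.

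Of 27 glycolysis and glycogen genes 19 fell and 1, the branching enzyme Gbe1, rose; the median was -1.09, the lowest of the gene lists apart from the lymphocyte markers, and -0.79 to -0.59 with 11 to 18 falls under the other scalings. Gpd1, which links glycolysis to glycerol phosphate, fell from 40438 and 35789 units to 6715, 7075 and 6714, 5.56-fold (limma adjusted p = 2.08e-07). Tpi1, triose phosphate isomerase, fell from 203909 and 224969 to 34671, 44829 and 40091 (adjusted p = 3.48e-07). Gys1, glycogen synthase, fell by 1.96 log2 units and Ldha, lactate dehydrogenase, by 1.49, while the hexokinases Hk1 and Hk2 both read -0.05 and did not pass. Of 33 genes of fatty acid uptake and oxidation 19 fell and 1, Acot2, rose (median -0.60, and -0.49 to -0.10 with 9 to 20 falls under the other scalings, 12 without innervated mutant 2). Acadm, an acyl-CoA dehydrogenase, fell from 91446 and 87509 units to 35531, 35206 and 34045 (adjusted p = 9.71e-06). The metabolic regulators Ppargc1a (-1.37), Ppargc1b (-1.79) and Esrra (-1.53) fell together with Perm1.

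Membrane excitability and calcium handling showed many large falls. Of 36 genes 25 fell and 5 rose, with a median of -0.98 (-0.83 to -0.48 with 15 to 22 falls under the other scalings). Beside Kcna7, Kcnc1, Kcng4 and Atp1b4, the chloride channel Clcn1 fell from 5279 and 8688 units to 2466, 4201 and 2733, 2.22-fold (limma adjusted p = 0.00604). Jph1 and Jph2, which join the T-tubule to the sarcoplasmic reticulum, fell by 1.59 and 1.79 log2 units. The water channel Aqp4 fell from 19084 and 18999 units to 3238, 2334 and 1847 (adjusted p = 2.29e-05). Against these falls, sarcolipin (Sln), an inhibitor of the calcium pump, rose from 474 and 869.98 to 8298, 7938 and 8071, 12.3-fold (adjusted p = 5.36e-06). The slow pump Atp2a2 rose from 7789 and 6576 to 21411, 21543 and 19589, while the fast pump Atp2a1 fell by 0.58. Kcnn3, a calcium-activated potassium channel of denervated muscle, rose by 2.65 from below the floor, and Cacng1 rose by 1.83.

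Among contractile genes 15 of 17 fast-fibre genes fell and 1, Mybph, rose, with a median of -0.58; the medians under the other scalings were -0.28 to -0.06, with 4 to 6 falls, and 6 genes fell without innervated mutant 2 and 8 without denervated mutant 2. Myh2, the fast IIa myosin heavy chain, fell from 91809 and 197374 units to 13960.2, 7565 and 8847, 13.7-fold (limma adjusted p = 2.79e-06). Myh4, the IIb chain and the brightest of these, read 230033 and 260936 and then 178406, 149947 and 186844, a log2 change of -0.52 ± 0.16 (adjusted p = 0.0335). The IIa signal was several times lower on every denervated array than on either innervated array, while the IIb arrays of the groups lay close without overlap. Mylk2, the kinase of the fast regulatory light chain, fell from 50489 and 47978 to 5884, 9656 and 9245 (adjusted p = 4.53e-06), and Casq1, the calcium buffer of fast fibres, by 1.15. In the slow-fibre list 1 of 13 rose (Atp2a2) and 2 fell (Casq2, -2.45, and Mybpc1, -0.71), while 4 fell without innervated control 3. The median of -0.49 ranged from -0.76 to -0.22 when a mutant array was left out. With centring on the polyadenylated spike-ins it turned to 0.01, which was -0.48 relative to all genes. Myh7, the slow chain, read 452 and 103 units and then 292, 259 and 559 and did not pass.

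Of 40 Z-disc, M-line and cytoskeletal genes 22 fell and 2 rose (median -0.62, and -0.32 to -0.12 with 12 to 17 falls and 2 to 7 rises under the other scalings, 1 rise without innervated mutant 1 or denervated mutant 1). After Ky the largest falls were in Lmod3, which elongates thin filaments, from 29123 and 32976 units to 2602, 2586 and 3587 (limma adjusted p = 3.87e-08), and in Myoz3, a calcineurin-binding protein, from 18829 and 9868 to 1859, 1488 and 896 (adjusted p = 6.61e-06). Capn3, a muscle protease, fell from 26555 and 27512 to 2596, 3058 and 3668. Myom3, of the M-line, and Flnc, filamin C, rose by 1.77 and 1.33 log2 units. Desmin (Des) read -0.07 ± 0.14 and did not pass. Developmental and cardiac sarcomere genes were divided, 3 up and 3 down of 8. Cardiac actin Actc1 fell from 156742 and 158731 units to 11245, 10951 and 21058, 11.5-fold (adjusted p = 1.15e-05), and cardiac troponin T (Tnnt2) rose by 1.26. Myh3, the embryonic myosin heavy chain, read 535 and 800.3 and then 545, 491 and 430.3 and did not pass.

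Of 6 intermediate filament genes tested 5 rose (median 1.51). Krt18, keratin 18, went from 662 and 310.4 units to 10392, 13749.8 and 12930 (limma adjusted p = 2.03e-07), and its partner Krt8 from 239.6 and 226 to 1858, 1844 and 2039 (adjusted p = 0.00324), both from around or below the floor. Lamin A/C (Lmna) rose by 2.18 log2 units. In the polyamine list the oxidase Smox fell. Odc1, the enzyme that starts the pathway, rose from 28508 and 21979.6 to 67037, 64259 and 76438 (limma adjusted p = 0.000197), and Srm and Sat1 rose by 1.18 and 1.03. The median of the 8 tested, -0.09, turned positive under the 4 other scalings. Relative to all genes it stayed at -0.08 with median and spike-in scaling and was 0.11 with quantile normalization. In the insulin and IGF list 8 of 24 rose and 8 fell: Irs1, a substrate of the insulin receptor, fell from 79003 and 58261 units to 5397, 7414 and 5421, 11.3-fold (adjusted p = 3.82e-07), the glucose transporter Slc2a4 fell by 1.94, and Akt1 and Irs2 rose by 1.74 and 1.37. Falls in that list numbered 3 without innervated mutant 1 and 5 without denervated mutant 2 or 3. Under the other scalings they numbered 2 to 9, and the list median of -0.04 turned positive in 3 of 4. Relative to all genes this median stayed negative, at -0.13 to -0.03. In the BMP and activin list 5 of 28 rose, Gdf5 and the BMP target Id2 (2.55) foremost, and 6 fell, among them the receptor Acvr1b (-1.23); over all genes 16.7% rose and 13.8% fell. Without innervated mutant 1, 2 of that list fell, and without denervated mutant 2, 3 rose. With median and spike-in scaling 7 to 9 of that list rose and 2 to 3 fell. Of all 12214 genes 3326 to 4766 rose and 496 to 782 fell there. The list median of -0.14 turned positive under these scalings, but stayed at -0.13 relative to that of all genes.

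Of 16 p53 targets and growth arrest genes 6 rose and 4 fell. The Gadd45 genes were divided: Gadd45a rose by 3.48 log2 units, while Gadd45b fell by 2.00 and Gadd45g fell from 18809 and 31571 units to 2147, 3065 and 3959.7 (limma adjusted p = 1.28e-05). Of 35 cell cycle genes 19 rose and 2 fell, with a median of 0.97. The falls numbered 0 without innervated mutant 1 or 2 or denervated mutant 3 and with median and spike-in scaling, and 1 without denervated mutant 1 or 2. Mki67, a protein of dividing cells, went from 77.0 and 313 units to 2182, 2606 and 1723 (adjusted p = 4.5e-05), and the replication helicase subunit Mcm5 from 472 and 576 to 1675, 1931 and 1951 (adjusted p = 5.55e-05). Mki67 thus began below the floor and was above it on all 3 denervated arrays. Of 17 clock genes 3 rose, Arntl (1.46), Clock (1.20) and Cry2 (0.80), and 5 fell, Bhlhe41 most (-2.15). Over all genes 16.7% rose and 13.8% fell, so the rises of clock genes were near the share of all genes. Without innervated mutant 2 only 1 clock gene rose, and 3 fell without innervated mutant 1 or denervated mutant 1 or 2. With median and spike-in scaling 4 to 8 clock genes rose and 1 fell, while 3326 to 4766 of all 12214 genes rose. The clock median of -0.06 turned to 0.24 to 0.44 there, and that of all genes to 0.29 to 0.49. Relative to all genes the clock median stayed at -0.05.

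**Figure D3:**
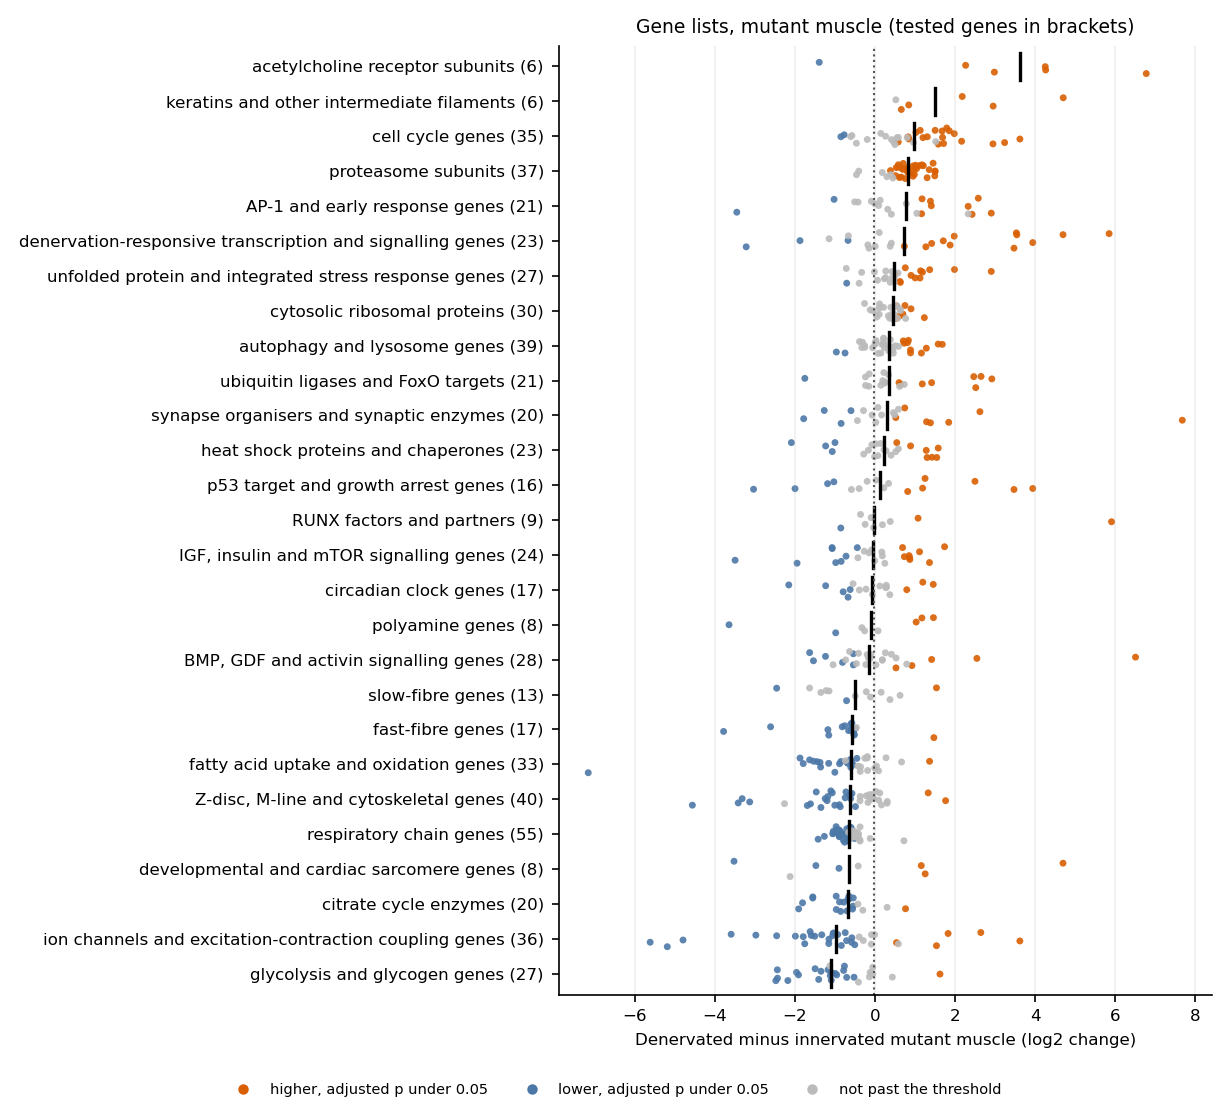
Log2 change (denervated minus innervated) of each tested gene of 27 lists in mutant muscle; points are genes, coloured by direction past an adjusted p of 0.05, black bars are list medians and the dotted line is the median of all genes. Acetylcholine receptor subunits have the highest median, 3.62, and glycolysis and glycogen genes the lowest, -1.09.

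Markers of other cells moved with these changes. Of 31 macrophage and leukocyte markers tested 21 rose and none fell, with a median of 1.38, and their summed signal was 44415 to 46937 units on innervated and 176653 to 200005 on denervated arrays. In innervated mutant muscle 10 of the 31 had means under the floor, in denervated muscle 2. Beside Cd68, Lgals3 and Gpnmb, the mannose receptor Mrc1 rose from 3059 and 3349 units to 7768, 9181 and 8175 (limma adjusted p = 4.41e-05) and Ptprc, the leukocyte antigen CD45, from 961 and 1018 to 2814, 4422 and 2871 (adjusted p = 7.41e-05). The macrophage receptor Adgre1 rose by 0.65 log2 units, less than Cd68. The part of these cells in the rises of lysosomal, cell cycle and inflammatory genes was not tested, and in whole muscle more cells of a type and more RNA per cell cannot be told apart. Of 11 granulocyte markers listed 4 were tested and 2 rose, S100a8 from 319 and 373 units to 21666, 24116 and 16480.1 (adjusted p = 1.12e-07) and Lcn2 from 614 and 214 to 8056, 9034 and 6169.8 (adjusted p = 1.6e-05). Of 15 lymphocyte markers listed 3 were tested: Blnk rose and the immunoglobulin chain Ighm fell by 2.12, a fall that did not pass without innervated mutant 1, and Cd8a (-1.20 ± 0.57) did not pass. Of 9 erythroid markers listed 2 were tested and 0 passed, 1 downward without denervated mutant 2.

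Of 18 satellite cell and myoblast markers 5 rose and 3 fell, against 16.7% and 13.8% of all genes. Their summed signal was 48372 to 48610 units on innervated and 94802 to 101788 on denervated arrays. The median change was 0.01, and most of the added signal was that of Tnfrsf12a. This receptor of TWEAK rose from 6577 and 3094 to 39225, 42433 and 45389 (limma adjusted p = 1.39e-05), Cdh15, M-cadherin, by 1.37 log2 units, and Pax7, which defines the satellite cell, read 0.60 ± 0.34 and did not pass. Without innervated mutant 2, 3 of the list rose, and without innervated mutant 1 or denervated mutant 3, 1 fell; 0 fell with median and spike-in scaling. Schwann cell and nerve markers were divided, 6 of 15 up and 3 down, with 3 rises without innervated mutant 2. Their median of -0.23 turned positive under all 4 other scalings. Relative to all genes it stayed at -0.22 with median and spike-in scaling and was 0.06 with quantile normalization. The myelin genes Mbp and Pmp22 fell by 2.08 and 1.45, Mbp from 10908 and 10445 units to 3484, 2221 and 2041 (adjusted p = 1.6e-05). Ngfr, a neurotrophin receptor of Schwann cells without axons, rose from 532 and 762 to 3771, 2501 and 2714 (adjusted p = 1.57e-05). Mbp was thus lower and the receptor higher on each denervated array, a non-overlap found for 60.7% of all genes.

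Matrix, vessel and fibre markers were mostly lower or did not pass. Of 30 fibroblast and matrix genes 3 rose and 8 fell, with 5 falls without innervated mutant 1 or 2 or denervated mutant 3. Their median of -0.15 turned positive with median and spike-in scaling, but stayed at -0.14 relative to that of all genes. The protease inhibitors Timp1 and Timp2 rose by 1.95 and 1.53 log2 units, and Thbs4 fell by 1.55. Endothelial markers fell in 7 of 18 cases and rose in none, with Pecam1, CD31, at -0.67 ± 0.18 (limma adjusted p = 0.0163), and pericyte and smooth muscle markers fell in 8 of 13; 0 of either list passed downward with spike-in centring, and 2 to 4 endothelial and 4 to 6 pericyte markers when an array of mutant muscle was left out. Of 7 adipocyte markers 0 passed, though 1 rose without innervated mutant 2 and with median and spike-in scaling and 1 fell without innervated control 2, and of 9 tendon and cartilage markers Sox9 and Scx rose and Thbs4 fell, none of them without innervated mutant 1. Skeletal fibre markers fell in 11 of 12 cases, with a median of -0.57, and their summed signal was 2624158 to 2943594 units on innervated and 1632251 to 2002840 on denervated arrays. Each of the 4 other scalings gave 1 call and medians of -0.27 to -0.04. Leaving out innervated mutant 2 gave 1 call, denervated mutant 2 gave 4, and innervated mutant 1 or denervated mutant 1 gave 7. The fibre marker Pvalb, parvalbumin, fell by 0.58 in these signals and read 0.0071 after quantile normalization.

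**Figure D4:**
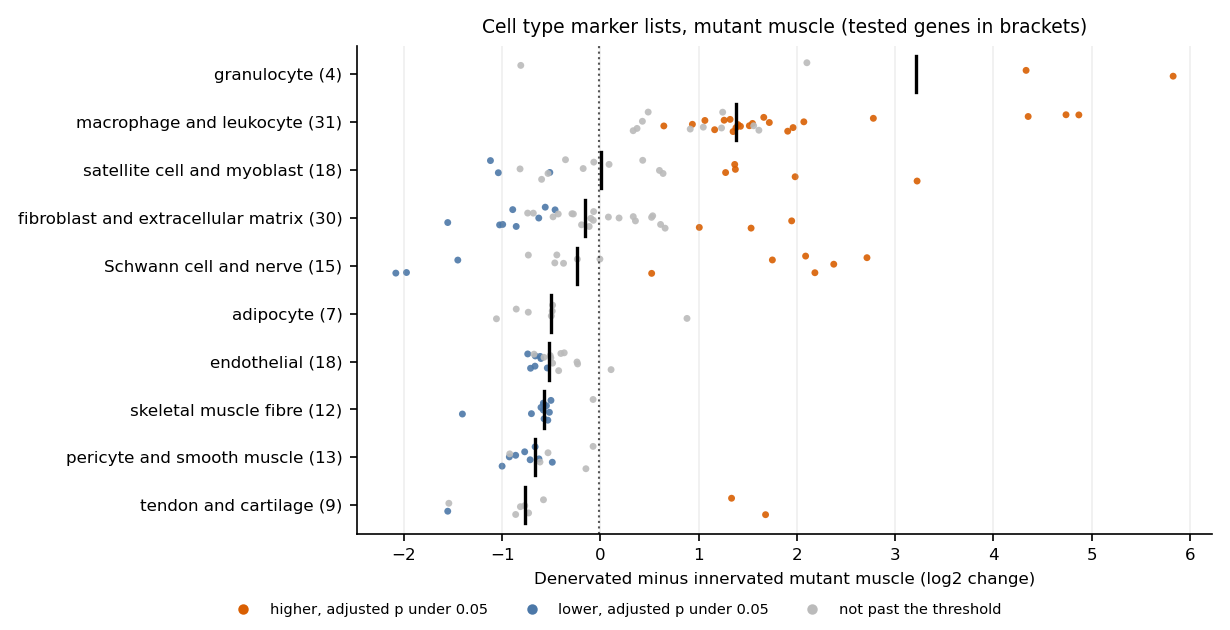
Log2 change (denervated minus innervated) of each tested marker of 10 cell type lists in mutant muscle; points are genes, coloured by direction past an adjusted p of 0.05, black bars are list medians and the dotted line is the median of all genes. Macrophage and leukocyte markers stand at a median of 1.38 with no fall, and endothelial markers at -0.53 with no rise.

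The second question was where this response differed from that of control muscle. In control muscle 18.0% of genes rose (2200) and 16.4% fell (2002), against 16.7% and 13.8% in mutant muscle, and the arrays of the 2 comparisons are not shared. Of the genes, 1537 rose in both genotypes, which are 1537 of 2034 in mutant and of 2200 in control muscle, and 1303 fell in both, of 1688 and 2002. Only 4 genes passed in opposite directions: Pcp4l1 and Rere rose in mutant and fell in control muscle, and Itga7 and Vasp did the reverse, named after their values were seen. Their differences between genotypes did not pass (limma adjusted p = 0.0631 for Pcp4l1, 0.112 for Rere, 0.108 for Itga7 and 0.109 for Vasp). Passing in a single genotype does not show a difference, so the difference itself was tested with the interaction, the change in mutant minus the change in control muscle. It passed for 0.248% of probe sets (65) and 0.262% of genes (32), of which 17 had a lower and 15 a higher change in mutant muscle.

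Genes with a lower change in mutant muscle included markers of denervated and immature fibres. Rrad, a small GTPase that inhibits calcium channels, read 66.0 and 201 units on innervated and 926, 2963 and 1332 on denervated mutant arrays, against 236, 23.9 and 69.4 and then 27446, 44256 and 29089 in control muscle. The gamma subunit Chrng, given above for mutant muscle, went from 72.9, 74.1 and 71.0 to 10267, 9627 and 10959 in control muscle. Myh3 went from 658, 895 and 1438 to 15508, 10189 and 7251 in control muscle. The denervated mutant arrays of all 3 lay below every denervated control array, while the innervated arrays of the genotypes were below the floor for Rrad and Chrng and overlapped in range for Myh3. The change was lower in mutant muscle by 4.89 ± 0.89 log2 units for Rrad (limma adjusted p = 0.0452), by 3.87 ± 0.46 for Chrng (adjusted p = 0.00603) and by 3.86 ± 0.46 for Myh3 (adjusted p = 0.00603). The sizes for Rrad and Chrng start from innervated signals under the floor, so they depend on background and on the added 16 units and are no measured fold differences. Aif1l, an actin-bundling protein, went from 1060.2 and 1125 to 1756, 1829 and 1812 in mutant and from 1305, 1064 and 900.3 to 16854, 15516 and 15736 in control muscle (interaction -3.16, adjusted p = 0.000118). Rrm2, a subunit of ribonucleotide reductase, went from 701 and 452 to 1488, 1240.2 and 1236 in mutant and from 916, 922 and 681 to 9212, 10944 and 11198 in control muscle (interaction -2.42, adjusted p = 0.00605). Both were thus much higher in denervated control than in denervated mutant muscle on every array. These genes and those below were picked by the interaction on the same arrays, so separation of their denervated arrays is no added support. The share of all genes so separated was not computed.

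Of the other genes with a lower change, Pln, phospholamban, read 1265, 2120.4 and 2314 units on denervated mutant and 7679.6, 11373 and 12592 on denervated control arrays, with an interaction of -2.69 (limma adjusted p = 0.0112). Sh3rf1, a ubiquitin ligase and scaffold, and the ectoenzyme Enpp3 rose in control muscle (2.79 and 2.11) and did not pass in mutant muscle (-0.66 ± 0.37 and -0.60 ± 0.29), with interactions of -3.44 and -2.71. Krt18 rose in both genotypes but ended at 10392, 13749.8 and 12930 units in mutant and 73719.6, 72418 and 49029 in control muscle (interaction -2.31, adjusted p = 0.0276). Myh2 fell in both, and further in mutant muscle: it ended at 13960.2, 7565 and 8847 units in mutant and 77796, 48761 and 79595 in control muscle, from 91809 and 197374 and from 177921, 158294 and 184561 (interaction -2.41, adjusted p = 0.0391). Dclk1, Asb15, Lmod3, Rgs2, Synpo2l, Cd82 and Dusp1 passed in the same direction with smaller differences, between -2.03 (Dclk1) and -1.32 (Dusp1).

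Of the 10 promoters looked up for these genes 8 were in the table. TGTGGT was found before 1 of the 8, Myh3, at 94 bases before the transcript start, against 14% of all promoters of that length. The 250 bases before Myh3, at chr11:67078050-67078299 on the plus strand (RefSeq, GRCm38.p6), are shown with this motif in capitals because its response differed between the genotypes.
Myh3: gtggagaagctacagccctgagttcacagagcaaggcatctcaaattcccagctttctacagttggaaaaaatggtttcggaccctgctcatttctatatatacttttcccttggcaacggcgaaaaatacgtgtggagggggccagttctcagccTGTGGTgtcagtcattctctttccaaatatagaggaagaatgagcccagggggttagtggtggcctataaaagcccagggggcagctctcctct
Of the 10 genes with the largest higher change 7 were in the table, and 0 of them held TGTGGT. A match or its absence in this window says nothing about binding of Runx1.

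Genes with a higher change in mutant muscle included an iron-binding secreted protein, lipid droplet genes and leukocyte genes. Lcn2, lipocalin-2, went from 614 and 214 units to 8056, 9034 and 6169.8 in mutant and from 455, 405 and 431 to 693, 524 and 1624 in control muscle. Ripply3, a transcriptional repressor, went from 227 and 678 to 4113, 4076 and 5016 in mutant and from 664, 623 and 475 to 923, 702 and 622 in control muscle. Every denervated mutant array of both genes lay above every control array. The change was higher by 3.39 ± 0.60 log2 units for Lcn2 (limma adjusted p = 0.0392) and by 3.08 ± 0.48 for Ripply3 (adjusted p = 0.0212). Blnk rose in both genotypes, to 47452, 44530.4 and 46447 units in mutant and 13205, 13906 and 15777 in control muscle (interaction 1.70, adjusted p = 0.00603). Gpnmb (interaction 1.52), Xdh (1.57) and Usp46 also passed, but a second kept probe set of Gpnmb gave an interaction of -0.29 and did not pass.

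Other genes were lower after denervation in control muscle and less so in mutant muscle. Aqp4 ended at 3238, 2334 and 1847 units in mutant and at 309, 460.1 and 277 in control muscle, from 19084 and 18999 and from 17249, 26732 and 11690.4 (interaction 2.65, limma adjusted p = 0.0257). Plin5 and Plin4, coat proteins of lipid droplets, ended at 3022, 3589 and 4816 and at 23102, 18334 and 26278 units in mutant against 889, 642 and 1070.3 and 8790.2, 6449 and 9448 in control muscle (interactions 2.09 and 1.86). Ppara, a nuclear receptor that drives fatty acid oxidation, ended at 2336, 2337 and 3825 in mutant against 1279, 862 and 1176 in control muscle (interaction 1.84, adjusted p = 0.036). For all 4 every denervated mutant array lay above every denervated control array, which their choice by the interaction on these arrays favours. Plet1os differed in the same direction (2.73, adjusted p = 0.0393), as did Sel1l3 (1.25) and Plcd4 (1.56).

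For Ptprc and the integrin Itgb2, both of leukocytes, the groups that stood apart were the innervated ones. Ptprc read 961 and 1018 units on innervated mutant arrays and 2669, 2725 and 3162 on innervated control arrays, and Itgb2 372 and 356 and 1161, 1015 and 1359.6. After denervation Ptprc read 2814, 4422 and 2871 in mutant and 3179.6, 2379 and 2786 in control muscle, and the groups overlapped. The interactions of 1.76 for Ptprc (limma adjusted p = 0.0259) and 2.04 for Itgb2 (adjusted p = 0.0276) thus go with 2 innervated mutant arrays that lie below all innervated control arrays. The summed macrophage and leukocyte signal was 52744 to 71194 units in innervated and 132550 to 181528 in denervated control muscle, against the mutant values above. The granulocyte sum was 23356 to 34021 in denervated mutant and 8450 to 17812 in denervated control muscle. Lcn2 is itself among the 4 genes summed, so this sum is no separate measure beside the Lcn2 difference. The part of granulocytes in that difference was not tested.

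Few of these differences passed under every alternative. Of the 20 named here, Chrng, Myh3, Aif1l and Rrm2 kept an adjusted p under 0.05 in all 22 alternatives tried. The other 16 passed in 9 (Rrad) to 21 (Blnk) of the 22. Without the variance trend 5 of the 20 passed. Without innervated mutant 2, 7 passed, without innervated mutant 1, 11, without denervated mutant 1, 2 or 3, 15, 9 and 11, without innervated control 1 or 3, 10 and 13, and without denervated control 1, 2 or 3, 13, 10 and 18. Without denervated control 3, whose note gives 5 days, Rrad and Myh2 were the 2 that no longer passed. Over the 22 alternatives the adjusted p of Rrad rose to as much as 0.221 and that of Myh2 to 0.153. For comparison, 151 of the 197 genes named for the denervation response passed in all of its 24 alternatives.

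**Figure D5:**
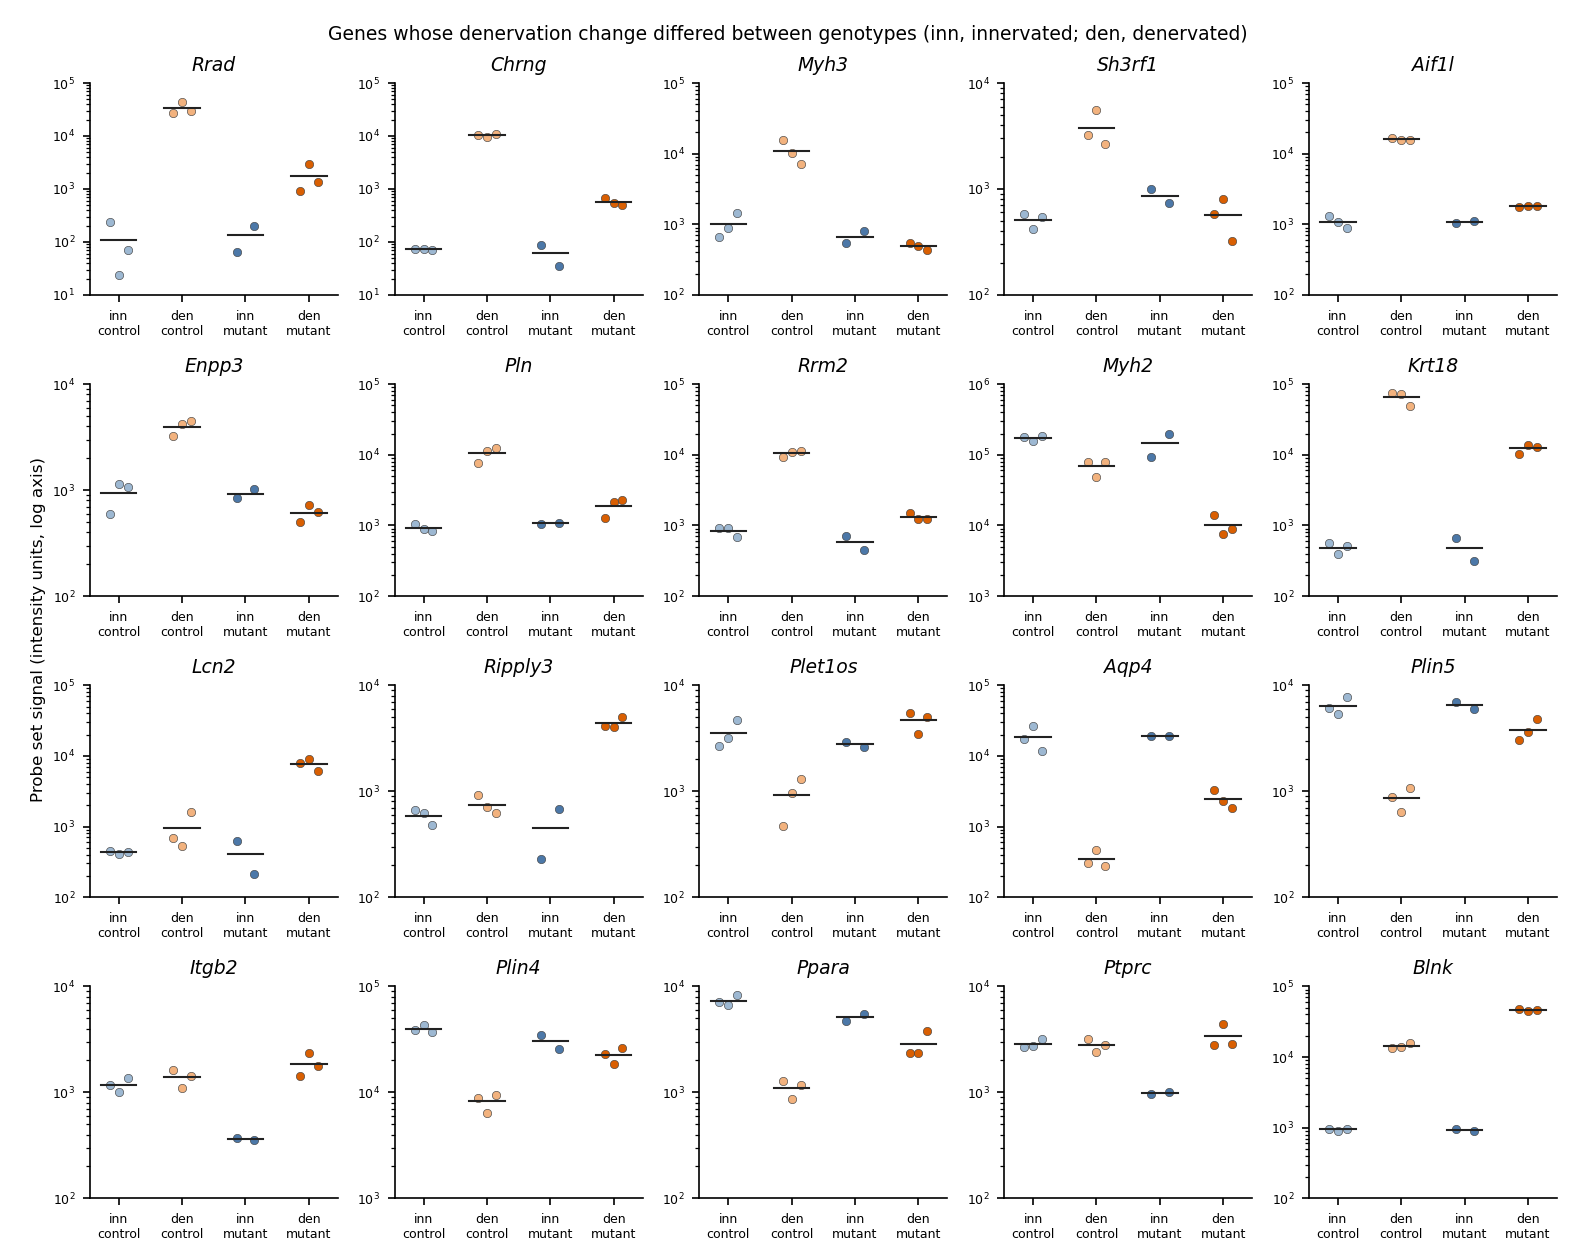
Probe set signal in intensity units (log axes, scaled per gene) of the 10 genes with the largest lower and the 10 with the largest higher change in mutant muscle, in innervated (inn) and denervated (den) control and mutant muscle; points are arrays and bars group means. Denervated control arrays of Rrad lie at 27446, 44256 and 29089 units and denervated mutant arrays at 926, 2963 and 1332, while for Lcn2 the mutant arrays, at 8056, 9034 and 6169.8, are the higher ones.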

How the data were processed

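Intensity values were used as deposited by the authors in the series' value table: linear Affymetrix probe set signals that the files show scaled to 1 trimmed mean (2% trimmed) on each array. The software and its settings are not given in the sources used here. Signals were log2-transformed after adding 16, and a probe set was kept if above its array's median on at least 2 of 11 arrays (26170 of 45037 that are no spike-in or control). Limma 3.58.1 in R 4.3.3 fitted 4 group means on all 11 arrays (empirical Bayes with trend, Benjamini-Hochberg adjustment over all probe sets, threshold 0.05), with contrasts for denervation in each genotype and their difference. Quoted adjusted p-values come from that fit. Of the probe sets in the platform annotation 34958 had 1 gene symbol, 932 had several and stayed unnamed, and 9211 were not listed; a gene is its brightest kept probe set, and genes above the floor alone are given folds. Named genes are Runx1, the 12 largest rises and falls above the floor and 6 each that cross it, without array overlap, the 5 called members of each list with the smallest p, members whose role defines a list, and the 10 largest interactions each way. Other list members, and the remaining interaction genes, were chosen after their values were seen. The arrays, members and lists were chosen with earlier results of these data known, so no list is independent evidence of its direction. Alternatives were other pseudocounts, filters, scalings (quantile, median, spike-ins; the polyadenylated spike-ins were added after seeing the data), 5 arrays alone, no trend, array weights, the replicate number as a block and each array left out. Same-numbered mutant arrays deviated together with a correlation of 0.0312 and 0.0517, so the numbers were not taken as pairs. The fit was tested on simulated data.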

Additional observations from a re-analysis of the deposited data

Results flagged for a closer look

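The test of the difference between the denervation changes of mutant and control muscle picked out the 20 genes named for it, given here as the change in mutant minus that in control muscle in log2 units. Lower in mutant muscle were Rrad at -4.89, Chrng at -3.87, Myh3 at -3.86, Sh3rf1 at -3.44 and Aif1l at -3.16. Enpp3 stood at -2.71, Pln at -2.69, Rrm2 at -2.42, Myh2 at -2.41 and Krt18 at -2.31. Higher in mutant muscle were Lcn2 at 3.39, Ripply3 at 3.08, Plet1os at 2.73, Aqp4 at 2.65 and Plin5 at 2.09. Itgb2 stood at 2.04, Plin4 at 1.86, Ppara at 1.84, Ptprc at 1.76 and Blnk at 1.70. The sizes for Rrad and Chrng start from innervated signals under the floor and depend on background. Other kept probe sets of the same gene also passed for the interaction in 2 of 2 cases for Aif1l, Enpp3, Pln and Rrm2 and in 2 of 4 for Sh3rf1, but in 0 of 2 for Aqp4 and Ppara and 0 of 1 for Plin5 and Chrng (-5.93 for Chrng). The causes of these differences were not tested.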

How the results depend on the processing

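The count of 6894 probe sets called for denervation in mutant muscle stayed within 1.5 times under every other alternative, but ranged from 4337 (without innervated mutant 2) to 8082 (without innervated control 2) when an array was left out, with 4595 without innervated mutant 1. The interaction's 65 became 10 without the variance trend and 104 with array weights, and 16 (without innervated mutant 2) to 108 (without innervated control 2) when an array was left out. In control muscle 7670 probe sets became 15572 with hybridisation spike-in centring. With the replicate number as a block 6083 probe sets passed in mutant muscle over all 11 arrays, 7514 over its 5 arrays, and 45 for the interaction. The log2 change of Pvalb turned to 0.0071 with quantile normalization. The causes were not tested. With 2 innervated mutant arrays, either of them bears on every result, and levels near the floor are limited by background.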
